A study of Mus musculus with 18 samples.

Results

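The genes described here are 9 C-type lectins of myeloid cells: Mgl2, Clec10a, Clec4a1, Clec4a2, Clec4a3, Clec4d, Clec4e, Clec4n and Clec7a. They were taken by name from 35842 gene symbols in the tables of the Ras tumours and of the tumour lines, 18267 in the table of CD11b-positive cells, 28692 in the 10x table and 28474 in the Drop-seq table. Clec7a was not analysed here in the 10x library. The group was put together because Mgl2, Clec4a1 and Clec4a2 had lower values after PLX3397 in both tumour types, so those differences describe how the genes were chosen and are not independent findings.

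The study set mouse gliomas with different drivers side by side for their myeloid cells and for what blocking CSF1R does to them. The drug, PLX3397, inhibits the kinase of CSF1R, a receptor that most macrophages and microglia depend on, as well as KIT and FLT3. All mice were of the strain Boy/J, and the labels give neither age nor sex. Ras tumours, with HRasV12 and dominant negative p53 as drivers, gave 4 vehicle and 4 PLX3397 libraries of bulk tissue, with daily gavage at 100 mg/kg from day 7 after implantation until moribund, and the 4 vehicle libraries also carry the treatment label "untreated". PDGFB-driven tumours gave cells isolated with CD11b beads as 1 vehicle and 2 PLX3397 libraries, dosed at 100 mg/kg for 3 days from day 14. Cultured tumour cells came as 2 Ras lines and 3 PDGF lines. Ras tumour tissue was also profiled as single cells, as 1 library by 10x and 1 by Drop-seq, without treatment. The titles do not say whether both libraries came from the same tumour. Since Ras mice were dosed until moribund, treatment and time after implantation cannot be told apart.

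C-type lectins are membrane receptors whose carbohydrate-recognition domain, often with bound calcium, binds sugars on microbes, on dying cells or on the body's own glycoproteins. In myeloid cells some of them activate: Clec7a (Dectin-1) signals through a tyrosine motif of its own, while Clec4n (Dectin-2), Clec4e (Mincle) and Clec4d (MCL) work with the adaptor Fcer1g, and both routes meet at the kinase Syk and the adaptor Card9. Clec4a2 (DCIR) carries an inhibitory motif that recruits phosphatases, and Mgl2 and Clec10a (the galactose-type lectins CD301b and CD301a) take up galactose-bearing glycoproteins into macrophages and dendritic cells.

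The 9 genes lie in 3 places of the mouse genome (GRCm38, GENCODE M21). Mgl2 (chromosome 11, 70130329 to 70137550) and Clec10a (chromosome 11, 70156197 to 70170834) are neighbours on the plus strand. The Dectin-2 cluster on chromosome 6 holds Clec4a1 (122921848 to 122934619), Clec4a3 (122952515 to 122969875), Clec4a2 (123106428 to 123143999), Clec4n (123229843 to 123247021) and Clec4d (123262111 to 123275265) on the plus strand and Clec4e (123281789 to 123289870) on the minus strand. Only 6523 bases separate Clec4d from Clec4e. Clec7a (129461591 to 129472779, minus strand) lies a further 6171720 bases along the same chromosome.

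Sequence shared between copies limits how reads can be assigned. Among 50-base stretches of the annotated transcripts, 12.2% of those of Mgl2 also occur in Clec10a, 8.49% of those of Clec10a occur in Mgl2, and 6.15% of those of Clec4a2 occur in Clec4a4. The other 6 members share no 50-base stretch with the 12 lectin genes compared. Values of Mgl2, Clec10a and Clec4a2 are therefore less certain in that share of their length.

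The promoters of members that went different ways after PLX3397 can be set side by side. The stretches below are the 250 bases before the RefSeq start site (GRCm38.p6), 5′ to 3′ on the strand of the gene. They are from Mgl2 (chr11:70130107-70130356, plus strand, its last 28 bases inside an annotated exon) and Clec4a1 (chr6:122921598-122921847, plus strand), whose levels were lower, and from the neighbours Clec4d (chr6:123261857-123262106, plus strand) and Clec4e (chr6:123289872-123290121, minus strand), whose levels were not. Capitals mark a match to 1 of 3 motifs searched on both strands: GAGGAAGT for PU.1, TTC and GAA with any 4 bases between them for STAT6, and TTGCNNAA for C/EBP. The motifs are palindromic only for STAT6, which then matches on both strands.
Mgl2: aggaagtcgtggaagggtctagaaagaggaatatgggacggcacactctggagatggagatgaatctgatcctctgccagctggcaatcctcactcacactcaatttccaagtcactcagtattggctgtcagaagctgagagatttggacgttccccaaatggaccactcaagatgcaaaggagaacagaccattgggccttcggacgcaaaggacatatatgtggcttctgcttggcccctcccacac
Clec4a1: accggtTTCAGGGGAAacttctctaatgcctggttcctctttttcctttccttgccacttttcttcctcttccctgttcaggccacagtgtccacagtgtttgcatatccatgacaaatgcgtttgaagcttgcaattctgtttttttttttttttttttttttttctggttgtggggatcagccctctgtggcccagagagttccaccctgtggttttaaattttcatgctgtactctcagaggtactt
Clec4d: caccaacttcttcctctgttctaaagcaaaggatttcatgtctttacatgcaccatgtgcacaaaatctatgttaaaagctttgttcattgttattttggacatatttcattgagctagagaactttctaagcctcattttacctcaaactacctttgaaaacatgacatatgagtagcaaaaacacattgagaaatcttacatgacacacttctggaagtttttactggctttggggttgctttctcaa
Clec4e: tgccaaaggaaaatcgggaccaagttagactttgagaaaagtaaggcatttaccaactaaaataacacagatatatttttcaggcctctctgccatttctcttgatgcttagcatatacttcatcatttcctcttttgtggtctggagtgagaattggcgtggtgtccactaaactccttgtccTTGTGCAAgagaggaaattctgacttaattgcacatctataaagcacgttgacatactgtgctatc
The Clec4a1 stretch holds a STAT6-type match 244 bases before its start. The Clec4e stretch holds a C/EBP-type match 66 bases before its start, read on the opposite strand. Neither the Mgl2 nor the Clec4d stretch matched any of the 3. Of 32851 RefSeq promoter windows of 250 bases, 2.44% held the PU.1 letters, 5.85% the STAT6 letters and 9.56% the C/EBP letters. RefSeq start sites were found for 7 of the 9 members, and their 9 windows held the PU.1 letters 0 times. The STAT6 letters also occurred in both windows of Clec7a. A match is a match of letters only.

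Depth, with M for 1e6, was 31.2 to 35.8 M counts per Ras tumour, 26.8 to 30.9 M per CD11b library and 31.9 to 35.8 M per line. Csf1r, the target of the drug, stood at 293, 283, 270 and 155 counts per M (CPM) in the vehicle Ras tumours and at 173, 106, 24.6 and 44.3 CPM under PLX3397, and the groups overlapped. The sum of 14 pan-myeloid genes did not overlap, at 1975 to 3692 CPM under vehicle and 442 to 1727 CPM under PLX3397. In these bulk libraries, fewer myeloid cells and less RNA per cell cannot be told apart. For the CD11b-positive cells that sum was 17264 CPM with vehicle, against 18341 and 14390 CPM with PLX3397, so the isolated cells carried the myeloid genes of their label in all 3 libraries. Ddx3y, a Y-linked gene, exceeded 1 CPM in replicates 1 and 2 of both Ras groups and not in replicates 3 and 4.

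In the Ras tumours, the lectins covered a wide range of levels. Per kilobase of annotated exon, the mean level in the 4 vehicle libraries ran from Clec4n (32.4 CPM per kb), Clec7a (21.6 CPM per kb) and Mgl2 (13.1 CPM per kb) through Clec4a3 (6.34), Clec4a2 (5.07), Clec4a1 (4.13), Clec4d (2.17) and Clec10a (1.17) to Clec4e (0.523). Neighbours in this order overlapped between libraries, except that every Clec10a value exceeded every Clec4e value. In the single vehicle library of CD11b-positive cells the order began with Clec7a (379 CPM per kb), then Clec4n (286) and Mgl2 (167), and ended with Clec10a (11.4) and Clec4e (9.96). Dectin-1, Dectin-2 and Mgl2 were thus the leading members in both sources.

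Under PLX3397, 4 of the 9 lectins in the Ras tumours had every treated library below every vehicle library, namely Mgl2, Clec10a, Clec4a2 and Clec4n, where 2.09% of all 18366 genes tested behaved so. The other 5 overlapped. With edgeR's quasi-likelihood test 0 of the 9 were called at an adjusted p under 0.05, where 0.0% of all genes were called, and 648 genes had an unadjusted p under 0.05. At an unadjusted p under 0.05, 6 members were lower, against 3.11% of all genes. DESeq2 called 5 members lower (Mgl2, Clec10a, Clec4a2, Clec4a3 and Clec4n), against 0.802% of the genes it tested, and 0 higher, against 0.0141%. The median log2 fold of the 9 was -1.73, beside 0.0015 over all genes. Since the group was chosen on this contrast, these counts describe it and support nothing further.

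Among the galactose-type lectins, Mgl2 stood at 29.3, 5.49, 28.9 and 46.4 CPM in the vehicle Ras tumours and at 2.18, 1.24, 0.566 and 0.833 CPM under PLX3397. Vehicle replicate 2 was the low library of its group and still lay above all 4 treated libraries. The fitted log2 fold was -4.51 (SE 0.72, edgeR adjusted p = 0.319). Its neighbour Clec10a stood at 3.96, 2.73, 3.59 and 3.31 CPM under vehicle and at 0.560, 1.33, 0.594 and 0.417 CPM under PLX3397. The groups did not overlap, and the vehicle libraries varied little. The log2 fold of Clec10a was -2.22 (SE 0.41, edgeR adjusted p = 0.367).

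In the DCIR subfamily, Clec4a2 stood at 18.3, 9.79, 16.003 and 15.2 CPM under vehicle and at 3.27, 1.42, 0.453 and 2.53 CPM under PLX3397. All treated libraries were below all vehicle libraries, with a log2 fold of -2.95 (SE 0.56, edgeR adjusted p = 0.373). Clec4a1, a close relative, stood at 8.26, 6.58, 8.83 and 2.06 CPM under vehicle and at 2.52, 1.95, 1.13 and 4.34 CPM under PLX3397. Vehicle replicate 4 fell among the treated libraries, so the groups overlapped, and the log2 fold was -1.37 (SE 0.54, edgeR adjusted p = 0.9998). Clec4a3 stood at 11.4, 7.80, 10.3 and 4.12 CPM under vehicle and at 1.68, 2.22, 1.70 and 4.52 CPM under PLX3397. Here too 1 library of each group crossed over, with a log2 fold of -1.73 (SE 0.45, edgeR adjusted p = 0.606).

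The activating lectins differed among themselves. Clec4n (Dectin-2, a receptor for mannans) stood at 62.3, 30.7, 35.3 and 55.8 CPM under vehicle and at 14.6, 13.9, 8.12 and 9.04 CPM under PLX3397, without overlap, at a log2 fold of -2.01 (SE 0.31, edgeR adjusted p = 0.319). Clec7a (Dectin-1, the receptor for beta-glucans) stood at 95.1, 16.8, 54.1 and 62.3 CPM under vehicle and at 66.1, 38.6, 21.5 and 30.5 CPM under PLX3397. Its lowest vehicle library lay below all treated ones, and the log2 fold was -0.54 (SE 0.52, edgeR adjusted p = 0.9998).

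Clec4d and Clec4e, which lie side by side and whose proteins can act as a pair, did not have lower levels. Clec4d stood at 3.96, 5.75, 1.52 and 2.67 CPM under vehicle and at 5.95, 15.5, 2.40 and 4.25 CPM under PLX3397. Its groups overlapped, and PLX3397 replicate 2 was the high library. The log2 fold of Clec4d was 1.02 (SE 0.63, edgeR adjusted p = 0.9998), and without that library it was 0.27. Clec4e stood at 2.55, 3.37, 1.52 and 2.94 CPM under vehicle and at 3.46, 1.89, 1.64 and 4.11 CPM under PLX3397, which is overlap throughout. Its log2 fold of 0.10 (SE 0.40, edgeR adjusted p = 0.9998) took the other sign when any 1 of 3 libraries was left out, with values from -0.16 to 0.28 over all such omissions.

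**Figure D1:**
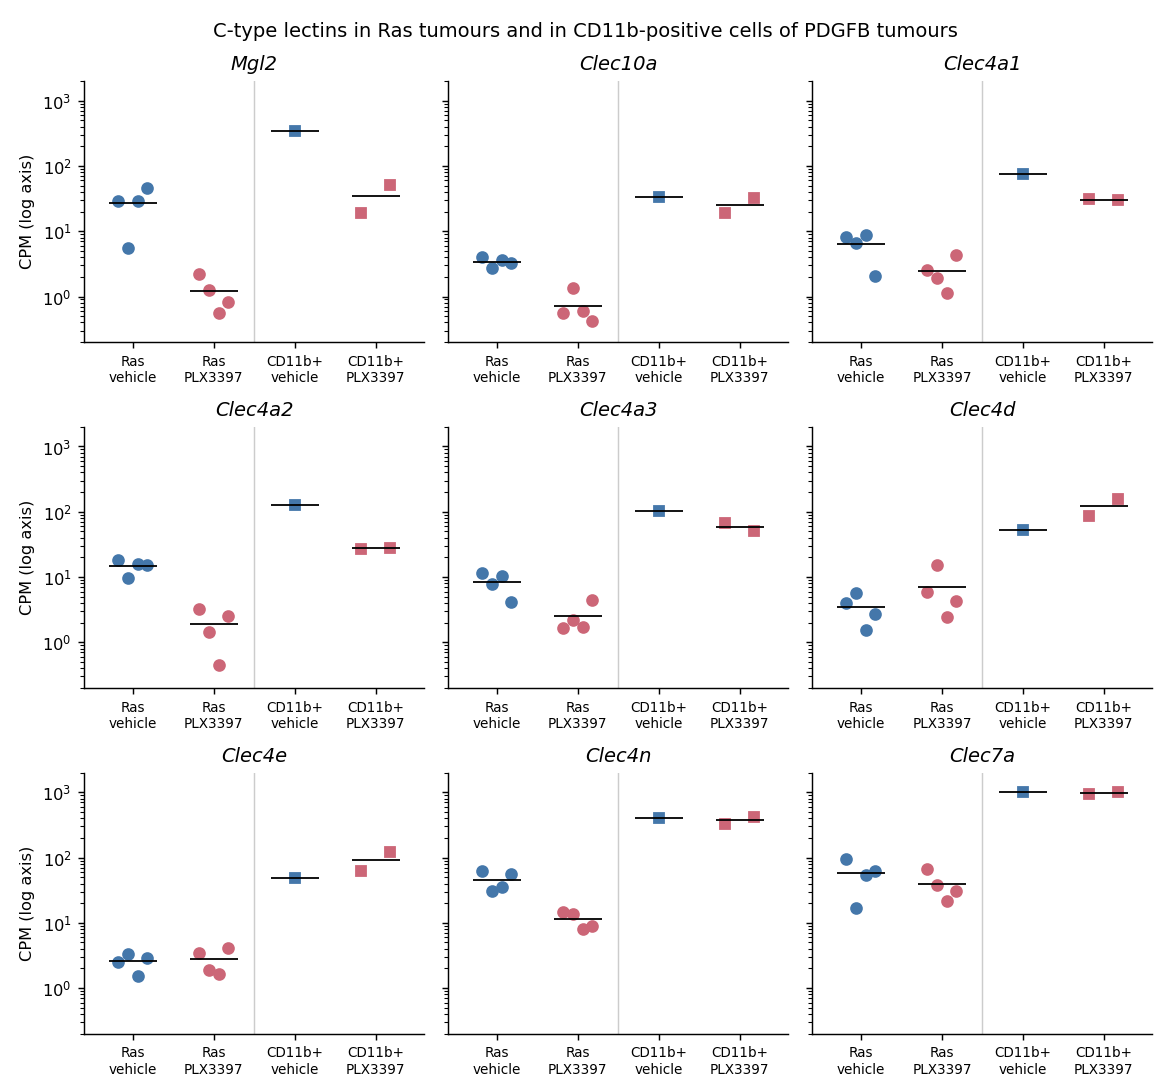
CPM on a log axis of each lectin in every bulk library of the Ras tumours (circles, 4 vehicle and 4 PLX3397) and of the CD11b-positive cells of PDGFB tumours (squares, 1 vehicle and 2 PLX3397), with black lines at group means. Treated libraries lie below vehicle libraries for Mgl2 and Clec4a2 in both sources, while Clec4d and Clec4e do not.

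Splitting the Ras libraries by Ddx3y left the direction of 7 members unchanged. The difference of mean log2 CPM for Mgl2 was -2.90 in the 4 libraries with Ddx3y and -5.61 in the 4 without it. For Clec4a2 it was -2.60 and -3.76, and for Clec4n -1.62 and -2.36, each without overlap in either set. The sign differed between the sets for Clec7a, at 0.34 with Ddx3y and -1.18 without, and for Clec4e, at -0.19 and 0.29.

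Relative to the RNA of myeloid genes, the lectins of the Ras tumours spread in both directions. The mean log2 CPM of the 14 pan-myeloid genes was lower by 1.55 under PLX3397 (a difference of -1.55), without overlap, and a lectin that moved with them would keep its ratio. The log2 ratio of Mgl2 to this mean was -2.69, -4.41, -2.21 and -1.10 under vehicle and -5.34, -5.64, -4.99 and -5.25 under PLX3397. Mgl2 thus lay below in all treated libraries after this scaling, by a mean difference of -2.70. Clec4a2 did too, at -3.36, -3.59, -3.05 and -2.70 under vehicle and -4.77, -5.46, -5.28 and -3.71 under PLX3397, a mean difference of -1.63. Mgl2 and Clec4a2 helped to choose the group on these same libraries, so these differences describe them and support nothing further.

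Clec4d went the opposite way without overlap. Its log2 ratio was -5.56, -4.35, -6.40 and -5.19 under vehicle and -3.92, -2.06, -3.01 and -2.98 under PLX3397, a mean difference of 2.38. The log2 CPM of Clec4d itself differed by 0.83, with overlapping groups, and the rest came from the denominator, which differed by -1.55. A gene with unchanged CPM would thus rise on this scale. The share of all genes without overlap on it, lower or higher, was not computed. The remaining 6 lectins overlapped, with mean differences of 1.604 for Clec4e, 1.13 for Clec7a, 0.24 for Clec4a1, -0.18 for Clec4a3, -0.44 for Clec4n and -0.70 for Clec10a. For Clec4a1, 1 of the 3 genes that chose the group, the difference was within the spread between libraries (pooled SD 0.88). With 12 homeostatic microglia genes as the denominator, Mgl2 (-3.08), Clec4a2 (-2.01) and Clec4d (2.00) again did not overlap, and Clec4a1 was at -0.14. Not all genes of that list are confined to myeloid cells here: in the cultured Ras lines Sparc was at a mean of 1038 CPM, while P2ry12 was at 0.655 CPM. The share of all genes without overlap was not computed for this denominator either.

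**Figure D2:**
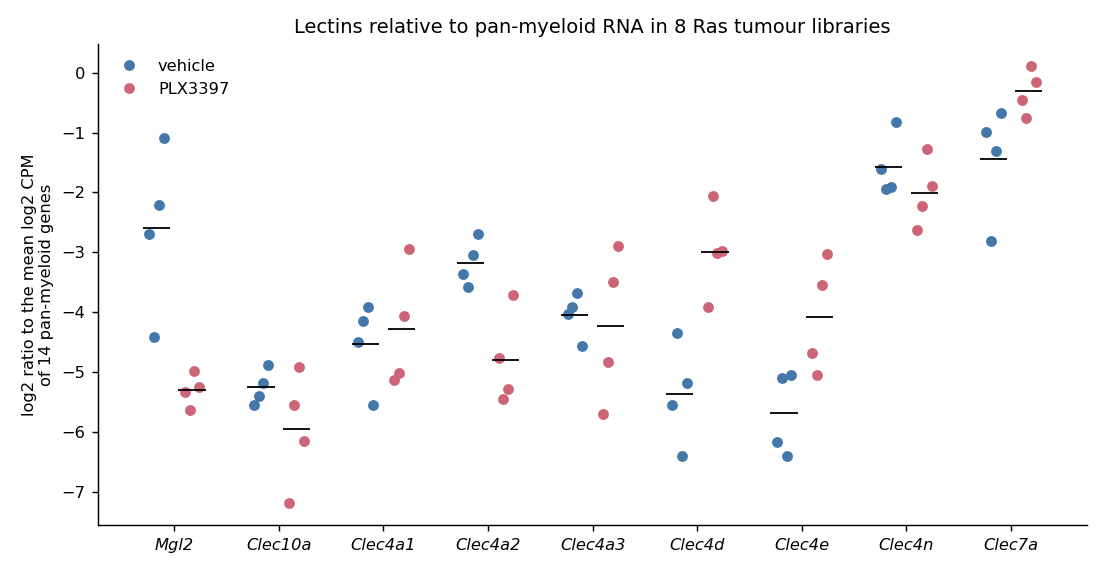
Log2 ratio of each lectin to the mean log2 CPM of 14 pan-myeloid genes in the 8 Ras tumour libraries, 4 vehicle and 4 PLX3397, with black lines at group means. Mgl2 and Clec4a2 lie lower and Clec4d higher in all treated libraries, and the other lectins overlap. The share of all genes without overlap on this scale was not computed.

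The CD11b-positive cells show the lectins after 3 days of treatment and after enrichment for myeloid cells. With 1 vehicle library, a gene lies below or above it in both treated libraries often: 42.0% of the 15052 genes tested were lower and 41.6% higher in this sense. Of the 9 lectins, 5 were below (Mgl2, Clec10a, Clec4a1, Clec4a2 and Clec4a3), 2 above (Clec4d and Clec4e), and Clec4n and Clec7a were on both sides. At an edgeR adjusted p under 0.05, 3 were called lower, Mgl2, Clec4a1 and Clec4a2, where 1.78% of all genes were, and 0 were called higher, where 4.57% were (6.35% in either direction). At an unadjusted p under 0.05, 4 members were lower and 1 higher, against 11.1% and 18.2% of all genes, and DESeq2 called 4 lower and 1 higher, against 4.25% and 10.4%. The same 3 genes chose the group. The median log2 fold of the 9 was -0.37, beside 0.0066 over all genes.

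Mgl2 was at 349 CPM with vehicle, against 19.3 and 50.2 CPM with PLX3397. It was the member with the largest difference here as in the Ras tumours, at a log2 fold of -3.32 (SE 0.54, edgeR adjusted p = 0.0463). That call was lost when genes with low counts were kept in (adjusted p = 0.0735), and against single treated libraries the fold ran from -4.16 to -2.79. Clec10a was at 33.0 CPM with vehicle, against 19.0 and 32.1 CPM with PLX3397, a log2 fold of -0.37 (SE 0.34, edgeR adjusted p = 0.523). The neighbours Mgl2 and Clec10a therefore stood far apart in these cells, while both were lower in the Ras tumours. The difference between the 2 genes was not tested.

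Clec4a2 was at 126 CPM with vehicle, against 26.9 and 28.0 CPM with PLX3397, a log2 fold of -2.20 (SE 0.14, edgeR adjusted p = 0.0305). Clec4a1 stood at 75.4 CPM and at 30.9 and 29.8 CPM, a log2 fold of -1.31 (SE 0.14, edgeR adjusted p = 0.0345). For both genes the treated libraries lay close to each other. Clec4a3 stood at 103 CPM and at 67.2 and 50.2 CPM, a log2 fold of -0.81 (SE 0.21, edgeR adjusted p = 0.0944), and DESeq2 called it (adjusted p = 0.0336). The DCIR relatives were thus all below the vehicle library, Clec4a2 furthest.

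The Dectins were level. Clec7a was at 1000 CPM with vehicle, against 943 and 1001 CPM with PLX3397, a log2 fold of -0.04 (SE 0.21, edgeR adjusted p = 0.916). Clec4n stood at 406 CPM and at 325 and 417 CPM, a log2 fold of -0.13 (SE 0.22, edgeR adjusted p = 0.733). These 2 receptors were the most abundant members per kilobase, and 1 treated library lay on each side of the vehicle library for both.

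Clec4d was at 51.7 CPM with vehicle, against 85.6 and 158 CPM with PLX3397, a log2 fold of 1.24 (SE 0.41, edgeR adjusted p = 0.136), and DESeq2 called it (adjusted p = 0.00407). Clec4e stood at 49.5 CPM and at 62.7 and 123 CPM, a log2 fold of 0.91 (SE 0.43, edgeR adjusted p = 0.244). PLX3397 replicate 2 was the higher library for both: without it the folds were 0.74 and 0.35. The summed neutrophil list of 10 genes was also highest in that library, at 1130 CPM, beside 631 CPM in PLX3397 replicate 1 and 790 CPM under vehicle. The 9 neutrophil genes tested had a median log2 fold of 1.25, and 0 were called by edgeR's adjusted p. At an unadjusted p under 0.05, 3 were higher (Csf3r, log2 fold 0.83, Cxcr2, 1.81, and S100a8, 1.49) and 1 was lower. Of all genes, 18.2% were higher and 11.1% lower at that threshold. In the Ras tumours the summed list was lower in every treated library (31.2 to 59.8 CPM) than in every vehicle library (70.7 to 581 CPM). Mmp9 made up much of that sum, at a mean of 189 CPM under vehicle and 15.1 CPM under PLX3397. Mmp9 was also a leading gene of an unnamed 10x cluster of 55 cells with endothelial and pericyte markers, so the sum does not stand for neutrophils alone. The 9 list genes tested in the bulk Ras tumours had a median log2 fold of -0.03, with 5 of them below 0. Clec4d per myeloid RNA was higher in the treated Ras tumours, while its CPM overlapped. The part of neutrophil RNA in the values of Clec4d and Clec4e was not tested.

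**Figure D3:**
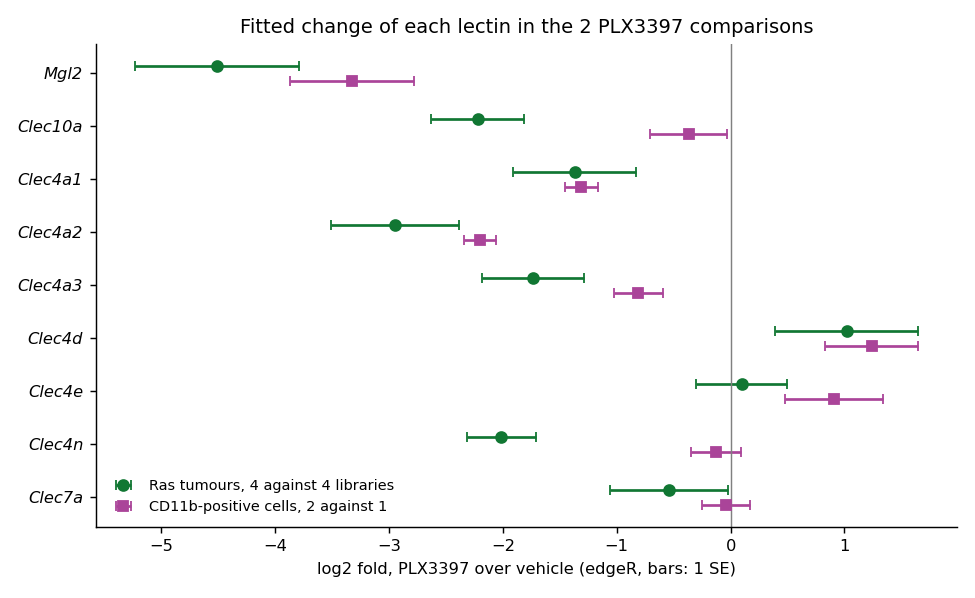
Log2 fold of each lectin, PLX3397 over vehicle, fitted with edgeR, with bars of 1 SE, in the Ras tumours (circles, 4 against 4 libraries) and in the CD11b-positive cells (squares, 2 against 1). Mgl2 lies lowest in both at -4.51 and -3.32, and Clec4d is positive in both at 1.02 and 1.24.

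Genes that act with the lectins were read in the same comparisons. At an unadjusted p under 0.05, 3.11% of all genes were lower and 0.414% higher in the Ras tumours by edgeR. In the CD11b-positive cells these shares were 11.1% and 18.2%, and 1.78% and 4.57% at an adjusted p under 0.05. The list counts that follow are to be read beside these shares. Of 15 adaptors and kinases of the activating lectins, 0 were called in the Ras tumours by edgeR, 11 were lower at an unadjusted p under 0.05, and the median log2 fold was -1.02. The 4 with the smallest p were Plcg2 (-1.24, SE 0.25), Lyn (-0.62, SE 0.16), Prkcd (-0.87, SE 0.27) and Syk (-1.23, SE 0.39). The cultured Ras lines also carried genes of this list, which summed to 641 and 620 CPM in them. In the Ras tumours the sum was 820 to 1110 CPM under vehicle and 620 to 685 CPM under PLX3397. The lines held Plcg2 and Lyn at means of 68.3 and 78.3 CPM, but Fcer1g at 0.181 CPM. The part of tumour-cell RNA in the values of this list was not tested. Among CD11b-positive cells 2 of the 15 fell at an edgeR adjusted p under 0.05, among them Card9 (-0.86, SE 0.15, adjusted p = 0.0481), the adaptor of Dectin signalling. The median over the 15 there was -0.23.

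Of the 3 phosphatases that serve inhibitory lectins, 0 were called in either comparison by edgeR. At an unadjusted p under 0.05, 2 were lower in the Ras tumours and 1 in the CD11b-positive cells. Ptpn6 (SHP-1) had log2 folds of -1.72 (SE 0.54) and -0.76 (SE 0.18). Of 12 products downstream of Dectin and Mincle signalling, 0 were called and 0 had an unadjusted p under 0.05 in either comparison, with medians of 0.45 and -0.16.

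Of 35 other C-type lectins, 21 were tested in the Ras tumours and 0 were called by edgeR, with 2 lower at an unadjusted p under 0.05 and a median log2 fold of -0.07. These 2 were Clec5a (-1.82, SE 0.57), a DAP12-linked receptor, and the mannose receptor Mrc1 (-2.14, SE 0.68). For the CD11b-positive cells 30 were tested and 2 fell: Clec5a (-1.39, SE 0.22, edgeR adjusted p = 0.0452) and the activation marker Cd69 (-0.87, SE 0.15, edgeR adjusted p = 0.0472). The median of the 30 was 0.37, with 10 below 0. At an unadjusted p under 0.05, 8 were lower, among them Cd72 (-1.05, SE 0.23), and 3 higher, among them Mrc2 (2.23, SE 0.44).

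Mgl2 is known to rise with interleukin-4 in macrophages and to mark a subset of dendritic cells, so both lists stand beside it. Of 11 tested interleukin-4 genes, 0 were called by edgeR in the Ras tumours, with 2 lower and 1 higher at an unadjusted p under 0.05 and a median of -0.36. The lower ones were Mrc1 (-2.14, SE 0.68) and Stat6 (-0.36, SE 0.15). In the CD11b-positive cells 1 of 11 was called, the chemokine gene Ccl22, which rose (log2 fold 1.83, SE 0.22, edgeR adjusted p = 0.0345). At an unadjusted p under 0.05, 3 were lower there and 1 higher, where 11.1% and 18.2% of all genes were, with a median of -0.16. The lower ones were Ccl24 (-3.33, SE 0.94, edgeR adjusted p = 0.105), Mrc1 (-0.71, SE 0.19, edgeR adjusted p = 0.0891) and Irf4 (-0.85, SE 0.29, edgeR adjusted p = 0.142). Ccl24 was at 287.7 CPM with vehicle, against 8.16 and 48.8 CPM with PLX3397. Chil3, another gene of that list, was at 15.4, 6.68, 7.73 and 4.32 CPM in the vehicle Ras tumours and at 34.7, 21.3, 11.97 and 27.0 CPM under PLX3397. Its groups overlapped, with a log2 fold of 1.48 (SE 0.45, edgeR adjusted p = 0.791).

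Of 10 tested dendritic-cell genes, 0 were called by edgeR in the Ras tumours and 3 were lower at an unadjusted p under 0.05. These were Kmo (-2.66, SE 0.55), Itgax (-2.32, SE 0.50) and H2-DMb2 (-2.89, SE 0.73). Among CD11b-positive cells H2-DMb2 (-1.70, SE 0.16, edgeR adjusted p = 0.0305) and Kmo (-1.69, SE 0.30, edgeR adjusted p = 0.0498) fell, 2 of 11 tested. Ccr7, a chemokine receptor of migrating dendritic cells, was at 27.0 CPM with vehicle, against 62.1 and 97.7 CPM with PLX3397 (log2 fold 1.56, SE 0.33, edgeR adjusted p = 0.0625). The median log2 fold of the list was -0.48 in the Ras tumours and 0.02 in the CD11b-positive cells, where 5 of 11 were below 0. The summed list was 260 to 399 CPM in the vehicle Ras tumours and 109 to 338 CPM under PLX3397, and the part of dendritic-cell RNA in the values of Mgl2 was not tested.

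The cultured lines show whether tumour cells carry these transcripts. All 9 lectins failed the filter on low counts there. In 4 of the 5 lines no lectin exceeded 6 counts. PDGF line 3 differed, with 170 counts of Clec7a (5.03 CPM), 26 of Clec4d (0.769 CPM) and 8 of Clec4n, and it was also the line in which the 14 pan-myeloid genes summed to 261 CPM, against 5.5 to 10.8 CPM in the others. Clec4e had 0 counts in all 5 lines, for which 3 counts, the most a count of 0 allows, would be at most 0.0941 CPM. Between Ras and PDGF lines 0.0% of the 17475 genes tested were called by edgeR's adjusted p, with 2842 at an unadjusted p under 0.05 and 2035 called by DESeq2. DESeq2 called 1 member, Clec7a, lower in the Ras lines (adjusted p = 0.0122), where 5.24% of all genes were. It had 0 counts in both Ras lines, and of the PDGF lines 170 counts in line 3 against 6 and 4 in the others.

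Single cells of untreated Ras tumour tissue placed the transcripts by cell type. The 10x library held 59.3 M unique molecular identifiers (UMIs) in 4384 barcodes, of which 3320 were kept at a median of 8351 UMIs. The Drop-seq library held 9.67 M UMIs in 5000 barcodes, of which 4901 were kept at a median of 1396. The libraries shared 0 barcodes. With 1 library each there is no test, and intervals cover counting error only. Clusters were formed without the 9 lectins. For 10x, a neutrophil-like cluster (79 cells, led by S100a8, S100a9 and Csf3r), a microglia-like cluster (267 cells, led by Fcrls, with Apoe and complement genes) and a monocyte or macrophage-like cluster (269 cells, led by Arg1, Lyz2 and Chil3) were named. The last also carried 7 of 10 microglia markers, and P2ry12, Tmem119 and Cx3cr1 were at 46.6, 59.3 and 430 CPM in it, against 29.6, 46.7 and 222 CPM in the microglia-like cluster. The names therefore follow marker counts and leading genes, and do not separate microglia from macrophages cleanly. No dendritic cluster separated, and the median depths of the 3 were 3141, 2569 and 14944 UMIs.

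The 3 myeloid clusters together made up 615 of the 3320 cells and held nearly all lectin UMIs, from 94.4% for Clec4a1 to 99.0% for Clec4a2. Outside them the lectins stood at 0.0419 CPM (Clec10a) to 1.15 CPM (Clec4n), in at most 1.89% of 2705 cells at a median of 9760 UMIs, which is the background for the shares that follow.

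Mgl2, Clec10a and Clec4a1 belonged mainly to the macrophage-like cluster. Mgl2 was at 43.6 CPM there (95% Poisson interval 38.2 to 49.6), at 10.4 CPM (5.67 to 17.4) in the microglia-like cluster and at 0 UMIs in the neutrophil-like cluster, for which 3 counts, the most a count of 0 allows, would be 12.2 CPM (the interval drawn in the plot of clusters ends at 14.96 CPM). The macrophage-like cluster alone held 90.4% of all Mgl2 UMIs, 96.3% of those of Clec10a and 91.7% of those of Clec4a1. Clec10a was at 19.2 CPM there against 1.48 CPM in the microglia-like cluster, and Clec4a1 at 18.3 against 2.22 CPM. Among the members analysed in this library, these 3 had the highest shares of their UMIs in 1 cluster. That cluster was also the deepest, at a median of 14944 UMIs per cell, which raises such shares. On the CPM scale Clec4d stood further apart between clusters than Mgl2, at 491 CPM in the neutrophil-like and 53.4 CPM in the macrophage-like cluster.

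Within the macrophage-like cluster Mgl2 was uneven. A UMI of Mgl2 was found in 39 of 269 cells, a cell held up to 33 UMIs, and 10 cells held 68.6% of the cluster's 236 Mgl2 UMIs. For Clec10a 10 cells held 70.2%, while for Clec4a2 they held 23.7% and for Clec4n 21.8%. Clec4a1 was close to the galactose-type lectins, in 41 cells with 59.6% of its UMIs in 10. Mgl2, Clec10a and Clec4a1 were thus carried by few cells, and Clec4a2 (130 cells) and Clec4n (184 cells) by more.

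The 39 cells with an Mgl2 UMI, deeper than the other 230 (medians of 29522 and 13314 UMIs), were set beside them on the CPM scale, with genes chosen after cluster levels had been seen. Clec10a was at 46.7 CPM (35.0 to 61.1) in the cells with Mgl2 and at 11.9 CPM (8.88 to 15.7) in those without. H2-Aa, an MHC class II gene, was at 2118 CPM against 480 CPM, and Flt3 at 12.3 CPM (6.74 to 20.7) against 4.21 CPM (2.49 to 6.65). In the other direction, Chil3 was at 1.76 CPM against 516 CPM, Ccl24 at 3.52 CPM against 228 CPM, Ly6c2 at 0 UMIs against 30.2 CPM and Ccr2 at 59.0 CPM against 183 CPM. Mrc1 was close, at 147 CPM (126 to 171) against 119 CPM (108 to 129), and Cd209a was near the limit of counting in both (7 and 22 UMIs).

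The Drop-seq macrophage-like cluster gave a partly different picture for the same split, from only 11 cells with Mgl2. H2-Aa was again higher, at 6657 CPM against 2500 CPM in the 166 cells without. Ccl24 went the other way from 10x, at 1380 CPM (804 to 2210, 17 UMIs) against 264 CPM (200 to 342). Ccr2 did so too, at 487 CPM (179 to 1060, 6 UMIs) against 87.9 CPM (52.9 to 137). Clec10a had 0 UMIs in these 11 cells and 1 in the other 166, too few to compare.

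Clec4a2 and Clec4a3 were shared between the macrophage-like and microglia-like clusters. Clec4a2 was at 72.6 CPM (65.6 to 80.2) and 55.6 CPM (43.7 to 69.7), intervals that overlap, and at 20.3 CPM (6.58 to 47.3) in the neutrophil-like cluster. Clec4a3 was at 51.9 CPM (46.0 to 58.4) and 31.9 CPM (23.1 to 42.9), and at 4.06 CPM with 1 UMI in the neutrophil-like cluster. After thinning each cell to 2000 UMIs, Clec4a2 was found in 12.2% of macrophage-like cells and 11.2% of microglia-like cells, against 48.3% and 16.5% before thinning. Thinning left out 7 macrophage-like, 97 microglia-like and 16 neutrophil-like cells below that depth.

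Clec4d and Clec4e were led by the neutrophil-like cluster. Clec4d was at 491 CPM there (407 to 586), at 53.4 CPM (47.4 to 59.9) in the macrophage-like and at 31.9 CPM (23.1 to 42.9) in the microglia-like cluster. Clec4e was at 572 CPM (481 to 674), 86.9 CPM (79.2 to 95.1) and 31.1 CPM (22.4 to 42.1) in the same order. At 2000 UMIs per cell, Clec4d was found in 55.6% of 63 neutrophil-like cells (57.0% of 79 before thinning), against 7.63% and 6.47% in the macrophage-like and microglia-like cells (36.8% and 10.5% before). Although neutrophil-like cells were richest, the 269 deeper macrophage-like cells held 61.1% of the library's Clec4d UMIs and 70.6% of its Clec4e UMIs. Of 45 neutrophil-like cells with Clec4d, 29 also had Clec4e, against 16 of 34 without Clec4d.

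Clec4n was the broad member among those analysed in this library. It was at 379 CPM (363 to 396) in the macrophage-like, 337 CPM (268 to 417) in the neutrophil-like and 253 CPM (227 to 281) in the microglia-like cluster. At 2000 UMIs per cell it was found in 32.8%, 42.9% and 34.7% of their cells, against 68.4%, 43.0% and 43.4% before thinning, and in 0.547% of the cells outside these clusters. Another random draw from the cells of the 3 clusters gave 36.3%, 42.9% and 35.9% in the same order. No other member analysed in this library reached this level in all 3 clusters. Clec7a was not analysed there, so it could not be compared.

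**Figure D4:**
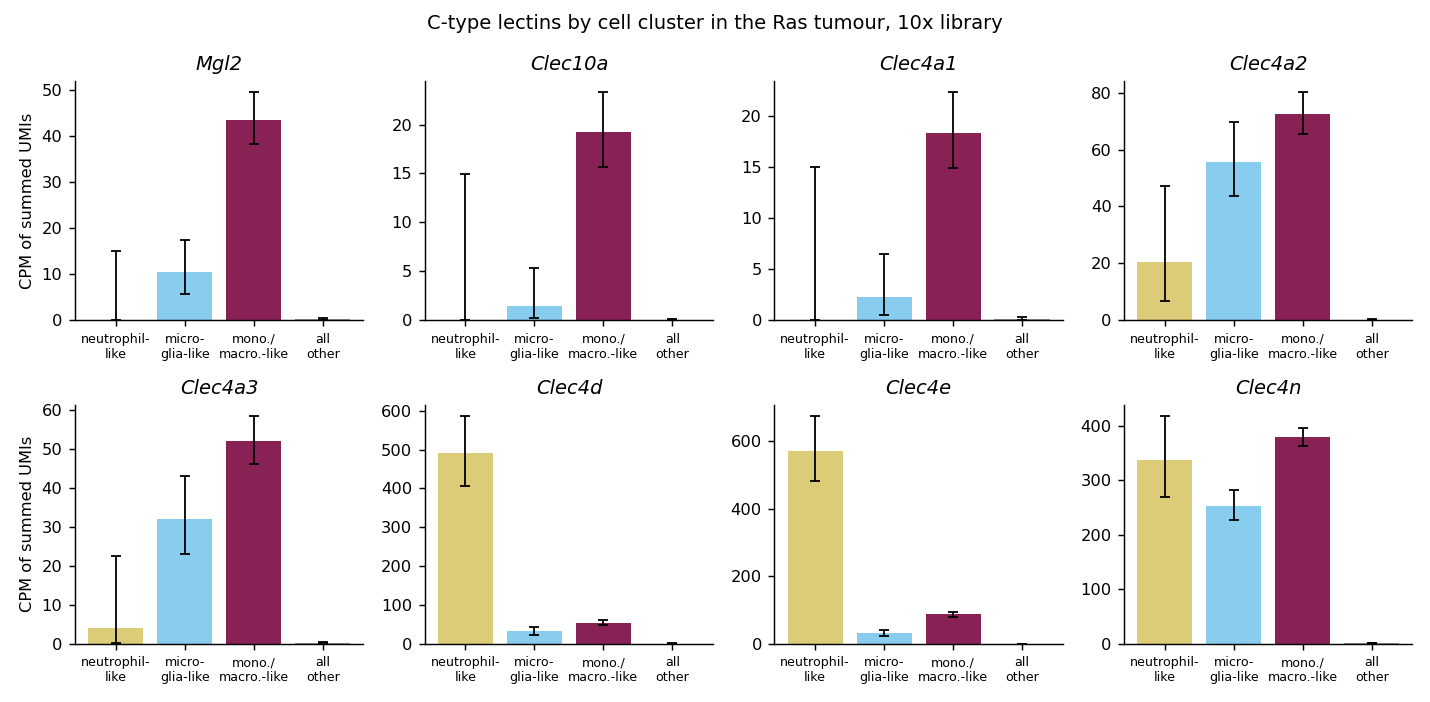
CPM of summed UMIs of 8 lectins in the neutrophil-like (79 cells), microglia-like (267) and monocyte or macrophage-like (269) clusters and in all 2705 other cells of the 10x library, with 95% Poisson intervals as bars. Clec4d and Clec4e peak in the neutrophil-like cluster, Mgl2, Clec10a and Clec4a1 in the macrophage-like cluster, and Clec4n is high in all 3.

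In the Drop-seq library 1 macrophage-like cluster of 177 cells carried the lectins, and no neutrophil-like or microglia-like cluster was named. Clec7a was the leading member there at 1441 CPM (1289 to 1605), in 109 of 177 cells, against 5.26 CPM in the 4724 other cells. Clec4n was at 136 CPM (92.2 to 193), Clec4a2 at 131 CPM (88.6 to 188), Mgl2 at 96.3 CPM (60.4 to 146) and Clec4a3 at 83.2 CPM (50.1 to 130). Of the 22 Mgl2 UMIs, 21 lay in 10 cells, and with cells of at least 1000 UMIs alone Mgl2 was at 35.2 CPM. Clec4d (5 UMIs), Clec4e (4), Clec4a1 (4) and Clec10a (1) were too sparse to place.

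Partners of the lectins were also counted in the 3 myeloid clusters of the 10x library. Fcer1g was at 2513 CPM in the macrophage-like, 1865 CPM in the microglia-like and 1708 CPM in the neutrophil-like cluster. Syk was at 98.5, 31.9 and 276 CPM in that order, and Card9 at 10.5 CPM (57 UMIs), 5.93 CPM (8 UMIs) and 4.06 CPM (1 UMI, under the 3 counts that a count of 0 allows). The inhibitory side was led by Ptpn6, at 196, 132 and 272 CPM.

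Genes whose pattern was most like that of 4 lectins were listed by Pearson's r on log2(CPM + 1), as a description. Over the 8 Ras tumour libraries, which share treatment groups, Mgl2 was nearest to Tgfbr1 (r = 0.98), Ocstamp, Klrb1b, Itgax and Trem1, and Clec4a2 to Fam46a (r = 0.99), Sirpb1b, Cysltr1, Mir5107 and Msr1. Clec7a was nearest to Serf1 (r = 0.96), Tgm2, Il12rb1, Pla2g4a and Cxcl9. For Clec4e the nearest gene, COX3, was at r = 0.86. Over the 14 clusters of the 10x library, which share 1 library and differ in depth, Mgl2 was nearest to Ccl24 (r = 0.97), Slamf9, Lilra5, Apoc4 and Folr2, Clec4a2 to Havcr2 (r = 0.99) and Adgre1, and Clec4e to Hp (r = 0.99), Tlr2 and Cd14. Ccl24 thus led the list of Mgl2 across clusters although, within the macrophage-like cluster, cells with an Mgl2 UMI had little of it.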

How the data were processed

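Bulk RNA was measured in 16 libraries and single cells in 2. The authors deposited raw counts per gene symbol (bulk) and UMI counts per gene and barcode (single cells), with no normalization, per the labels and the values. Per the submitters' processing notes the build was GRCm38 and the tools included featureCounts 1.6.2, STAR 2.6.1e, Cell Ranger and, for reads, cutadapt 1.9.1, Trim Galore 0.4.2 and FastQC 0.11.7. For the role of each, and for strandedness, the answer is not given in the sources used here. Of counts from 1 to 10, even ones made up 62.8% to 69.4% in the Ras and line libraries and 39.9% to 41.9% in the CD11b libraries. The line table held 5 columns that match no sample, not used. Entries with dates as names (27 each for the Ras and line libraries, up to 0.281% and 0.360% of counts) and 1 nameless CD11b entry were dropped.

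Each bulk table was fitted alone with edgeR 4.0.16 in R 4.3.3 (quasi-likelihood, robust, TMM, filterByExpr), with Benjamini-Hochberg adjustment over all genes tested and a threshold of 0.05. Fold changes are log2 values with their SE. The CD11b fit has 1 residual degree of freedom among its samples, and its lone vehicle library is assumed to vary like the treated ones. Titles number the Ras tumour and CD11b libraries by mouse (Ms) and the cultured libraries by line. Where nothing says that libraries came from separate animals or cultures, p-values measure only the spread between these libraries, which may be technical. Alternatives were DESeq2 1.42.0, RLE scaling, no filter, a replicate block, and leaving out each library. Replicate numbers did not pair the Ras libraries (correlations of 0.11, 0.13, -0.42 and 0.45). In simulated data edgeR recovered 36 of 67 genes changed 4-fold in the Ras design (18020 genes) and 48 of 67 in the CD11b design (14818 genes). Over all 200 genes changed, 88 were recovered in the Ras design, beside 6 false calls. In the CD11b design 131 were recovered, beside 43 false calls. Calls in the CD11b design may therefore hold more false ones than the threshold of 0.05 states.

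The 10x barcodes needed 500 UMIs and 300 genes, the Drop-seq barcodes 300 UMIs and 200 genes, and mitochondrial UMIs could not exceed 20%. No doublet caller was run and doublets were not removed. Clusters came from scanpy 1.11.5 on Python 3.11.15 (2000 variable genes without the 9 lectins, 30 principal components, 15 neighbours, Leiden 0.5) and took a name from 3 or more markers raised 2-fold or more, with the 10 leading genes not favouring another class. Intervals are exact at 95% (Poisson for CPM) and cover counting error only. Thinning was to 2000 UMIs per cell by random draw, and thinned shares varied between draws. Clec4d in neutrophil-like cells, for example, was found in 55.6% in the draw given above and in 50.8% in another. Promoter sequences are from RefSeq.

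The members, gene lists and tests were chosen with earlier results of these data known. Named genes were all members, up to 4 per list with the smallest unadjusted p in each comparison, and the nearest 5 by likeness (mean CPM of at least 5, or 200 UMIs). Csf1r was added as the target of the drug, and the single-cell genes set beside Mgl2 were chosen after cluster levels were seen. A gene that the rule names is not reported here.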

Additional observations from a re-analysis of the deposited data

How the results depend on the processing

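The number of genes called over the whole table depended on the tool. In the Ras tumours it was 0 by edgeR, 174 by DESeq2 (3 higher, 171 lower) and 1 without the filter on low counts. In the CD11b-positive cells it was 956 by edgeR (688 higher, 268 lower), 1995 by DESeq2 (1415 higher, 580 lower) and 1907 without the filter (1298 higher, 609 lower). Between the lines it was 0 by edgeR, 2035 by DESeq2 and 1 without the filter, and 0 to 2111 when each line was left out, the latter without Ras line 2. With RLE scaling the counts were 0, 1148 and 0. The cause of these differences was not tested. With 1 vehicle library of CD11b-positive cells, how vehicle mice vary was not measured.

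Replicate numbers did not pair the Ras tumours, and with the replicate block 0 genes were called there and 0 between the lines (690 and 1110 at an unadjusted p under 0.05). No paired analysis was possible in the CD11b-positive cells because the groups share 1 number only.

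Among alternative folds of the lectins in the Ras tumours, 114 kept direction and call, 2 moved, 5 became calls and 5 changed sign. Clec4e took the other sign without vehicle replicate 3, PLX3397 replicate 1 or PLX3397 replicate 4 (-0.16 to 0.28 over all omissions) and within the libraries with Ddx3y (-0.19), and Clec7a did so within those libraries (0.34). Without PLX3397 replicate 1 of the CD11b-positive cells Clec4n (range -0.309 to 0.0474) and Clec7a (range -0.0730 to 0.0106) took the other sign. Per pan-myeloid RNA, Clec4a1 took the other sign with the microglia denominator (-0.14), without vehicle replicate 4 (-0.10) and without PLX3397 replicate 4 (-0.21, with omissions ranging up to 0.52), and Clec4a3 without PLX3397 replicate 1 (0.31) or 2 (0.02, with omissions ranging down to -0.63). The cause was not tested. Among single-cell levels under other settings, 391 stayed within their counting interval and 17 did not.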
